A study of Bos taurus with 27 samples.

Results

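Bright probes are those the scanner software marked well above background on all 18 arrays of the early and middle fattening stages, and there were 6811 of them, for 6786 gene names, among the 15008 probes of a customized bovine microarray. The rule used no difference between stages, but the dimmer middle arrays decided most of it: 9963 probes passed on all early arrays and 6813 on all middle arrays. The middle arrays alone removed 3152 probes, whose median change was −0.21, and the early arrays alone removed 2, so that probes that were low at the middle stage are left out. Rumen epithelium (RE) was sampled from the same 9 castrated and fistulated Japanese Black cattle at both stages, so that each animal served as its own control. The epithelium of the ventral sac was taken with a biopsy punch at 14 months of age (early) and 21 months of age (middle), and all cattle ate concentrate with rice straw, with a larger share of concentrate at the middle stage. There was no group on another diet and no younger or older control at either stage, and the labels name neutrophils and liver as the source of the RNA extract although they give the tissue as RE. Age, time on the diet and the composition of the diet cannot be told apart in this design. The cattle were sampled again at a late stage, which is not compared here.

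The RE is a stratified squamous epithelium without mucus. Its basal cells divide and hold on to the basement membrane, its middle layers absorb volatile fatty acids and turn butyrate into ketone bodies, and its outer layers flatten into a cornified barrier. Grain feeding raises the production of acids in the rumen, which the epithelium meets with transporters for anions, protons and bicarbonate and with pumps that consume ATP.

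A level is the log2 signal of a probe minus the median log2 signal of its array, and a change is the level at the middle stage minus that at the early stage in the same animal. Arrays at the middle stage were dimmer. Median processed signals ran from 35.2 to 48.6 at the early stage (median 39.3) and from 8.22 to 28.7 at the middle stage (median 16.7), without overlap, and the middle stage array of animal 4 was the dimmest. Probes well above background made up 68.8% to 78.1% of an early array and 48.5% to 71.5% of a middle array. The first slide held the early arrays of animals 1 to 8, the second slide the early array of animal 9 with the middle arrays of animals 1 to 7, and the third slide the middle arrays of animals 8 and 9, which were scanned on a later day. Stage and slide therefore overlap almost completely.

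**Figure D1:**
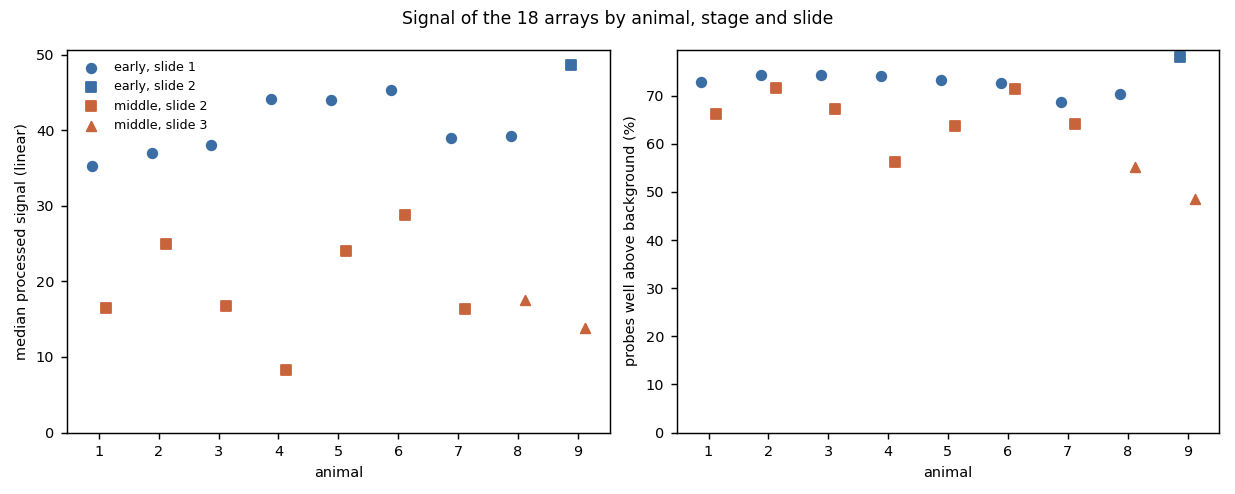
Median processed signal on a linear scale (left) and the percentage of probes well above background (right) of each array, by animal; color gives the stage and marker shape the slide. All 9 middle arrays have a lower median signal than every early array.

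The genes with the largest changes were taken among those called, as defined below, that moved one way in all 9 cattle. Of these, the chromatin proteins BAZ2A and DNMT3A and the transcription factor LEF1 rose. The autophagy receptor SQSTM1, the water channel AQP3 and the selenium-binding protein SELENBP1 fell. Of the 6811 bright probes, 3709 were called (54.5%, against 61.8% of all probes), of which 2140 rose (31.4%) and 1569 fell (23%) at an adjusted P below 0.05 (limma with the animal as a block, Benjamini-Hochberg adjustment over all 15008 probes). A change of 2-fold or more was passed by 494 upward (7.25%) and 479 downward (7.03%). Of all 15008 probes 43% rose and 18.8% fell, and 23.8% and 7.53% did so by 2-fold or more, so that the balance among bright probes lay closer to even. The median change of the bright probes was 0.08, with quartiles of −0.38 and 0.48 and a median standard error of 0.16, against a median of 0.68 among the 8197 probes that were not bright. The early and middle levels did not overlap for 636 bright probes that were higher (9.34%) and 559 that were lower (8.21%), against 6.21% and 6.74% of all probes, and 2500 (36.7%) moved the same way in all 9 cattle, against 36.8%. In bulk tissue, fewer cells of a type and less RNA per cell cannot be told apart.

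The split between rises and falls moved with the background correction, the scaling and the animals. With normexp correction, whose offset of 50 exceeds the median signal of every array, 790 bright probes rose and 2239 fell, and the median change was −0.28. Rises made up 57.7% of the calls as reported and 26.1% with normexp, and 50.8% and 2.11% of the changes of 2-fold or more. With cyclic loess 2103 rose and 2078 fell, and 396 and 525 did so by 2-fold or more. On the first scan day alone (animals 1 to 7) 467 rose and 533 fell by 2-fold or more, and, without animals 4 and 9, a total of 343 rose and 406 fell to that degree. With the slide as a fixed block, 1 bright probe was called higher and 0 lower (limma; 726 and 136 at an unadjusted P below 0.05). Within the second slide, which holds 1 early array, 0 were called higher and 1 lower (782 and 337 unadjusted), and 98% of the probes called over all arrays had the same sign there, where the 8 arrays are also among the 18. With the fixed block 85.5% had the same sign. In that fit slide and stage are parted only by animals 8 and 9, whose arrays lie on other pairs of slides than those of animals 1 to 7. With the slide as a random block 1591 rose and 841 fell.

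The difference between probes near the 3′ end and probes near the 5′ end moved with the stage in all 9 cattle. Whether RNA quality had a part in it was not tested. GAPDH, a glycolytic enzyme often used as a reference gene, was read by 8 bright probes along its transcript, and ACTB, the cytoplasmic actin, by 4. The 4 GAPDH probes that start between bases 176 and 459 changed by −1.47 to −1.28, those from bases 972 and 989 by −0.04 and −0.00018, and those from bases 1185 and 1209 by 0.70 ± 0.13 and 0.63 ± 0.13. The ACTB probes from bases 320 and 931 changed by −0.74 ± 0.15 and −1.14 ± 0.15, and those from bases 1587 and 1780 by 0.61 ± 0.13 and 0.64 ± 0.17 (adjusted P of 0.00184, 0.000153, 0.00232 and 0.006, limma). Probes of one and the same gene were thus called lower near the 5′ end and higher near the 3′ end.

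The GAPDH signal of the 2 probes nearest the 3′ end minus that of the 4 nearest the 5′ end ran from 4.27 to 4.62 log2 units on early arrays (median 4.45) and from 5.63 to 7.87 on middle arrays (median 6.36). It rose in 9 of 9 cattle, by a mean of 2.03 ± 0.69 (SD, n = 9), and most in animal 4, by 3.43. On the second slide the early array stood at 4.32 and the 7 middle arrays at 5.63 to 7.87. The same difference for ACTB ran from 2.25 to 3.35 and from 3.78 to 5.10, again without overlap. In all 6 genes with several bright probes on one transcript (ACTB, GAPDH, OAZ1, RPL27, RPS13 and RPS20) the probe nearest the 3′ end had the higher change, by 0.21 to 1.92.

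With the GAPDH end difference of each array as a covariate, 0 bright probes were called in either direction (limma; 247 higher and 169 lower at an unadjusted P below 0.05). The median standard error was then 0.46 in place of 0.16, and 56.4% of the called probes had the same sign as without the covariate. The covariate did not overlap between the stages, so this fit can hardly part it from the stage. Over the bright probes, falls were less common further along the transcript: 29.8% of the fifth that starts before base 761 fell and 18% of the fifth that starts from base 2651, whereas 33.9% and 30.2% rose. Falls of 2-fold or more made up 12.2% and 3.67%, respectively, and rises of 2-fold or more 10.4% and 6.75%. The SD of the changes was 0.83 and 0.61, so that large changes in both directions were more common among probes that start before base 761. The distance of a probe to the 3′ end was not known, since only its start from the 5′ end is given. Every change below is therefore that of a probe at its place on the transcript.

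**Figure D2:**
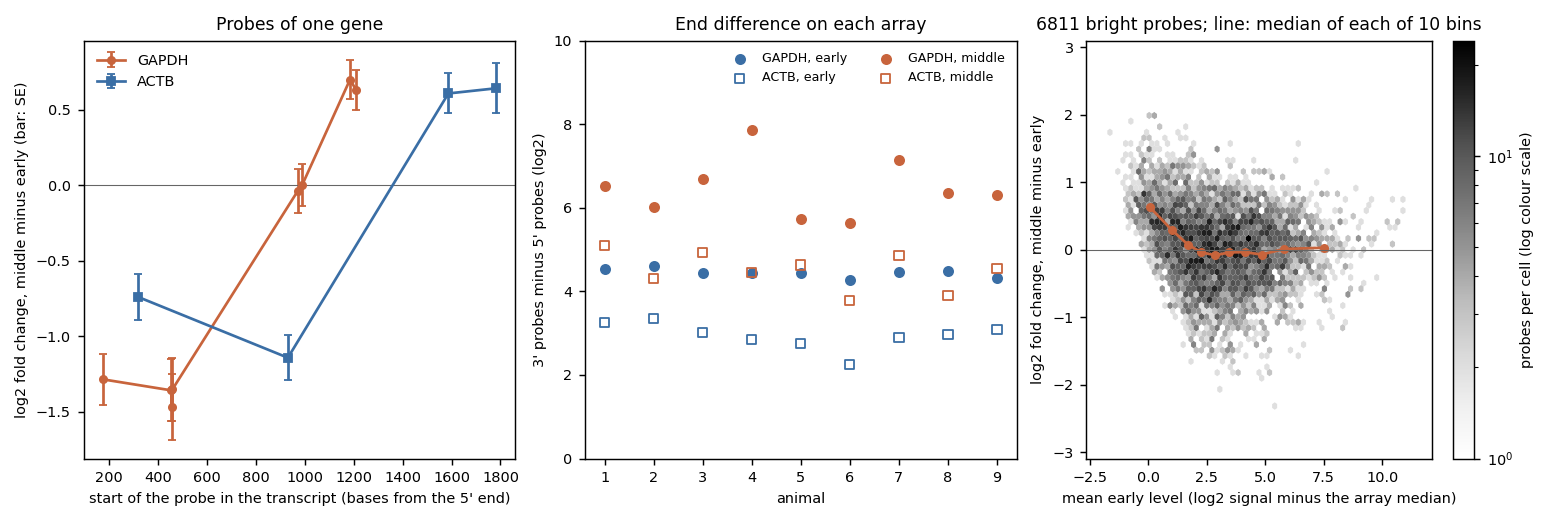
Left, change of each GAPDH and ACTB probe (log2, bars SE) against its start in the transcript; middle, 3′ minus 5′ difference of both genes on each array; right, change of the 6811 bright probes against their mean early level, with the median of each of 10 bins. The lowest end difference of GAPDH on a middle array, 5.63, is above the highest on an early array, 4.62, and the median change is highest in the dimmest bin.

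The probe sequences that carry these results are given below with coordinates on bosTau6, the build of the array file. Each is 60 bases long, and G and C are in capitals because the change also moved with the GC content of the probe. All of them join exons, since their coordinates span more than the probe. The 2 GAPDH probes lie in the part that fell and in the part that did not, and both have 45% GC; the others belong to genes with the largest rises (BAZ2A, TNIK) and falls (SELENBP1, AQP3, DHRS1).
GAPDH from base 454, chr5:104239012-104239162, minus strand: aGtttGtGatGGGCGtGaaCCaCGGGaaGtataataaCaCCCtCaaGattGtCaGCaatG
GAPDH from base 972, chr5:104237943-104238104, minus strand: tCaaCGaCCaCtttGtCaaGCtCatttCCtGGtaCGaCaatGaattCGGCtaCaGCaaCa
BAZ2A, chr5:57151449-57151783, plus strand: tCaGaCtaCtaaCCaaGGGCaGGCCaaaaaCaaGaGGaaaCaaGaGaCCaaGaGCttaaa
TNIK, chr1:96874653-97020893, plus strand: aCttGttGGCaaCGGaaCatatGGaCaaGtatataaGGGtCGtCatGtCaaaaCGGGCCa
SELENBP1, chr3:19488298-19489035, plus strand: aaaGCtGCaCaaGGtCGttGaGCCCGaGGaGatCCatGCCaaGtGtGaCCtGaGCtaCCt
AQP3, chr8:76526980-76527378, minus strand: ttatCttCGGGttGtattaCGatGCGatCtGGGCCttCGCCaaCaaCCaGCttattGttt
DHRS1, chr10:20707418-20711678, plus strand: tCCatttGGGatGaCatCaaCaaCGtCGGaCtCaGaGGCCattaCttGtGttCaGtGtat

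Several of the largest rises were those of genes that act in the nucleus. BAZ2A, a subunit of a complex that silences ribosomal RNA genes, had levels of 1.59 to 3.59 at the early stage (median 2.41) and 4.11 to 6.86 at the middle stage (median 5.22). The stages did not overlap, and BAZ2A rose by 2.81 ± 0.24, adjusted P = 2.93e-05. Levels of THRAP3, a factor of splicing and transcription, were 1.11 to 3.14 at the early stage (median 1.84) and 3.18 to 6.58 at the middle stage (median 4.41). It rose by 2.60 ± 0.30, adjusted P = 8.93e-05, likewise without overlap, and the middle array of animal 4 was far above the others. DNMT3A, a DNA methyltransferase, had levels of 0.24 to 1.15 at the early stage (median 0.88) and 2.24 to 4.28 at the middle stage (median 2.90) and rose by 2.17 ± 0.26, adjusted P = 0.000103. For LEF1, a transcription factor of Wnt signaling, levels were −0.19 to 0.89 at the early stage (median 0.28) and 1.43 to 3.96 at the middle stage (median 2.42), a rise of 2.22 ± 0.28, adjusted P = 0.000133. The zinc finger gene ZNF518A rose by 2.23 ± 0.17, adjusted P = 1.43e-05, from levels of at most 0.95 to levels of at least 2.14.

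Rises were also seen in genes of other roles. ND6, a complex I subunit encoded in the mitochondrial genome, had levels of 1.04 to 2.49 at the early stage (median 1.44) and 3.13 to 5.00 at the middle stage (median 3.96) and rose by 2.48 ± 0.17, adjusted P = 1.43e-05. FGF16, a fibroblast growth factor, rose by 2.34 ± 0.35, adjusted P = 0.000325, and its level in animal 4 at the middle stage was 6.91 against at most 4.82 in the others. Levels of TNIK, a kinase of Wnt signaling, were −1.12 to 0.65 at the early stage (median −0.13) and 0.28 to 4.00 at the middle stage (median 2.30). Its stages overlapped, although it was higher in all 9 cattle, as the choice of genes required (2.33 ± 0.32, adjusted P = 0.000209). GZMM, a granzyme of natural killer cells, changed by 2.22 ± 0.31, adjusted P = 0.000241, and ERCC4, a DNA repair nuclease, by 2.05 ± 0.34, adjusted P = 0.000563.

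The 2 remaining genes among the 12 largest rises were MTMR2, a lipid phosphatase (2.11 ± 0.27, adjusted P = 0.000155), and ZNF33B, a zinc finger gene (2.05 ± 0.31, adjusted P = 0.000367). Their probes shared a run of 37 bases that no other probe on the array holds, so that their signals are not independent of each other. The first 30 bases of that run are shown because they carry this overlap.
Shared by MTMR2 and ZNF33B: TGAAGAGGAACTAAAAAGCCTCTTGATGAA
Over all bright probes, 33 shared at least 20 bases with a probe of another gene name, and 15 of these rose (45.5%) and 2 fell (6.06%). Of the other 6778 bright probes 31.4% rose and 23.1% fell.

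The 12 largest falls included enzymes, membrane proteins and proteins of degradation. Like the 12 rises, they were taken among called genes that moved one way in all 9 cattle. CYP1A1, a cytochrome P450 induced by aromatic compounds, had levels of 3.75 to 7.18 at the early stage (median 5.49) and 0.58 to 4.58 at the middle stage (median 3.42). It fell in all 9 cattle (−2.82 ± 0.40, adjusted P = 0.000257), but its stages overlapped and its standard error was the largest of the 24 genes. ENPP3, an ectonucleotidase, had levels of 3.75 to 5.78 at the early stage (median 4.70) and 0.45 to 2.93 at the middle stage (median 1.97) and changed by −2.75 ± 0.27, adjusted P = 4.84e-05. SELENBP1 levels were 5.04 to 6.63 at the early stage (median 5.93) and 2.11 to 4.21 at the middle stage (median 3.42), and its change of −2.62 ± 0.20, adjusted P = 1.43e-05 left a gap between the stages. SQSTM1, which brings ubiquitinated cargo to autophagosomes, had levels of 2.72 to 3.46 at the early stage (median 3.15) and −0.06 to 1.13 at the middle stage (median 0.71), a change of −2.45 ± 0.16, adjusted P = 1.28e-05. LAMP3, a lysosomal membrane protein, changed by −2.43 ± 0.32, adjusted P = 0.000166.

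AQP3, which passes water and glycerol, had levels of 3.24 to 4.33 at the early stage (median 3.72) and 0.71 to 1.99 at the middle stage (median 1.51), and changed by −2.36 ± 0.17, adjusted P = 1.43e-05. SLC25A6, an ADP/ATP carrier of the inner mitochondrial membrane, had levels of 5.27 to 6.01 at the early stage (median 5.89) and 1.52 to 4.10 at the middle stage (median 3.58) and changed by −2.55 ± 0.29, adjusted P = 8.41e-05. GHITM, another protein of that membrane, changed by −2.36 ± 0.21, adjusted P = 3.01e-05. AUP1, a protein of lipid droplets and of the endoplasmic reticulum, changed by −2.43 ± 0.18, adjusted P = 1.43e-05, and IL36RN, an antagonist of epithelial interleukin signaling, by −2.38 ± 0.28, adjusted P = 0.000106. The lysyl-tRNA synthetase KARS1 and the dehydrogenase DHRS1 changed by −2.34 ± 0.24 and −2.34 ± 0.22. Stages overlapped for 3 of the 24 genes, TNIK, ZNF33B and CYP1A1. The probes of the 12 falls start at base 544.5 of the transcript in the median (326 to 2489) and those of the 12 rises at base 2173.5 (414 to 4359). Over all changes of 2-fold or more, the median start was base 984 for the 479 falls and base 1352 for the 494 rises. Both lie before the median of all bright probes, base 1505. Of the 24, 0 were called with the slide as a fixed block, on the second slide alone or with the GAPDH covariate, and 19 kept their direction with the covariate. All 24 kept their direction with both slide settings and with the other scalings, normexp and each animal left out. With an animal left out, or with scaling to the median of the bright probes, that direction was fixed by the choice of the genes. The arrays of the second slide are also part of the main fit, so the directions there are not independent of it.

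**Figure D3:**
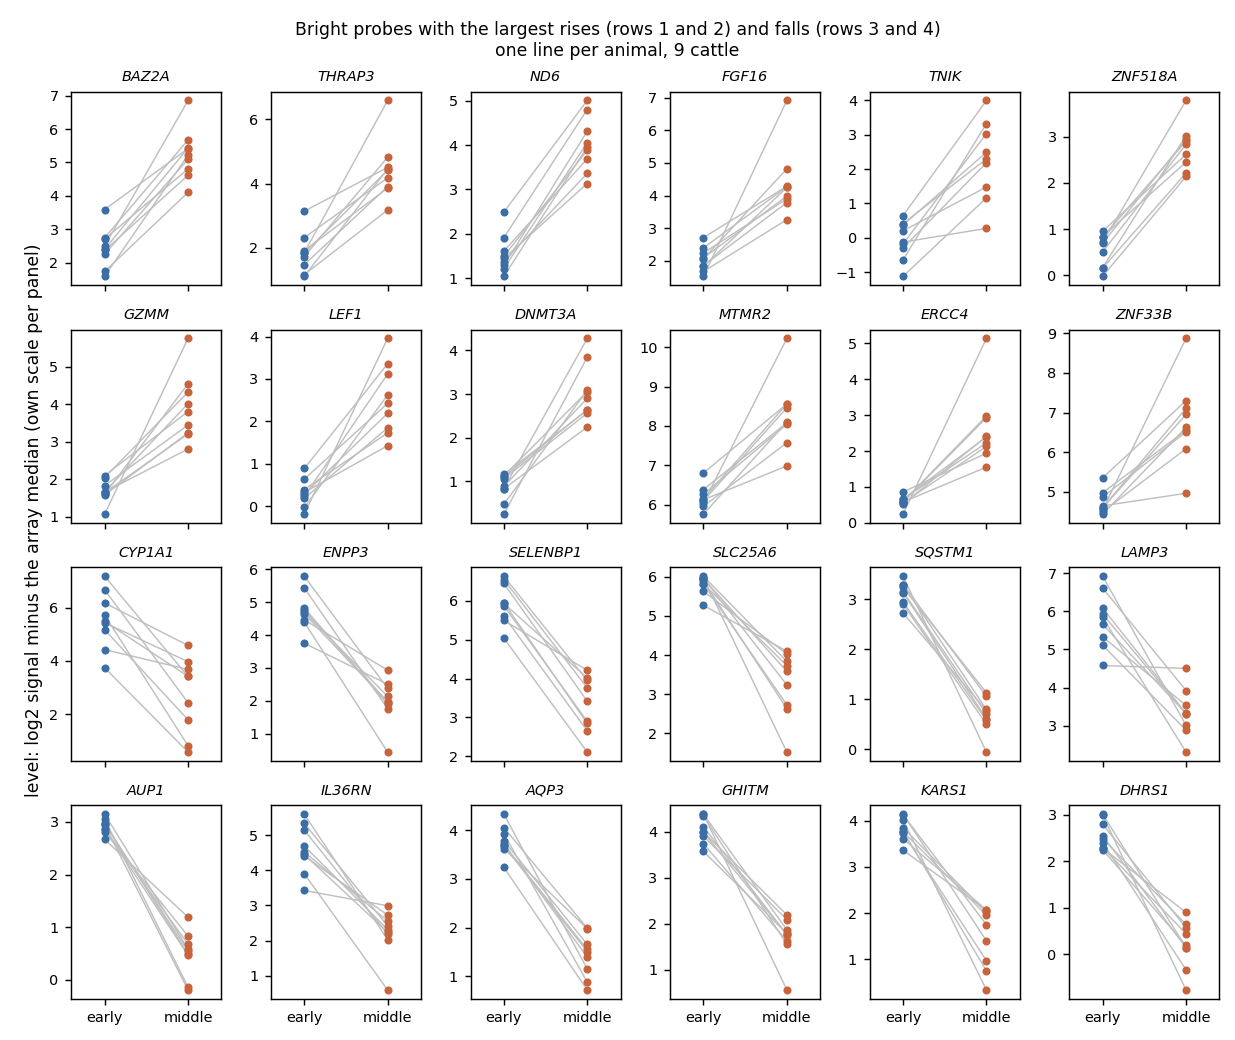
Levels (log2 signal minus the array median) of the 12 bright genes with the largest rises and the 12 with the largest falls, one line per animal, early to middle stage. The genes were chosen among called genes that moved one way in all 9 cattle. Lines rise in rows 1 and 2 and fall in rows 3 and 4 for all 9 cattle in each panel.

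Gene lists were then described by how many bright members rose and fell, to be read against 31.4% and 23% over all bright probes. For each list, the member with the largest called rise and fall that went the same way in all 9 cattle is named; further members were named after their values had been seen. Of the 35 lists, 22 had a median change below 0 and 13 above. All 13 went below 0 with normexp, but 10 of 10 lists above the median of all bright probes remained above it and 24 of 25 below it remained below. Over the scalings tried, 15 lists changed sign, 10 of them with normexp alone. Stage and slide overlap. A fixed block for the slide (median standard error 0.62) left the sign of 23 lists, and 10 lay below 0. The 12 that turned had all been below 0: the medians became 0.02 for aminoacyl-tRNA synthetases, 0.09 for complex I, 0.24 for complexes II to V, 0.10 for immediate early genes, 0.10 for mitochondrial ribosomal proteins and 0.59 for mitochondrially encoded subunits. They became 0.37 for p53 and apoptosis genes, 0.13 for the proteasome, 0.55 for the tight junction, 0.30 for translation factors, 0.18 for tubulins and vesicle transport and 0.30 for acid transport, and that of the tricarboxylic acid cycle was −0.07. Counted over members whose probes start from base 1500, 10 of 34 lists turned. They were the S100, SLC and SLCO, actin, complex I, immediate early, mitochondrial ribosomal, proliferation, proteasome, tight junction and translation factor lists.

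Among genes of energy metabolism, enzymes of the tricarboxylic acid cycle and of pyruvate entry more often fell: 3 of 25 rose, 13 fell, and the median change was −0.45. PDK3, a kinase that switches off pyruvate dehydrogenase, had levels of 4.54 to 5.45 at the early stage (median 5.20) and 2.38 to 3.94 at the middle stage (median 3.27). The stages did not overlap, and the change was −1.78 ± 0.20, adjusted P = 8.48e-05. SDHB, a subunit of succinate dehydrogenase, changed by −1.73 ± 0.22, and OGDH and SUCLA2, enzymes of the oxoglutarate and succinyl-CoA steps, by −1.68 ± 0.13 and −1.02 ± 0.22. Citrate synthase (CS) and PDHA1, a pyruvate dehydrogenase subunit, rose, by 0.49 ± 0.18 and 1.09 ± 0.17, adjusted P = 0.000382. Of the 13 members whose probes start from base 1500, 1 rose and 8 fell, with a median of −0.62. The list median was −0.33 without animal 4.

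Subunits of the respiratory chain moved both ways. Of complex I, 6 of 35 rose, 13 fell and the median was −0.01, which turns to 0.05 with scaling to the 75th percentile or on the series matrix values and to 0.04 with scaling to the median of the bright probes. NDUFS1, the largest iron-sulfur subunit, had levels of 4.34 to 4.82 at the early stage, with a median of 2.82 at the middle stage, and fell without overlap (−1.74 ± 0.14, adjusted P = 1.61e-05). NDUFC1, an accessory subunit, rose (1.95 ± 0.21, adjusted P = 6.2e-05) from levels of −0.08 to 0.68 to levels of 1.44 to 3.52. Of complexes II to V, 4 of 38 rose, 11 fell (median −0.08). Probes that start from base 1500 were few, 3 in each of these lists. Of those of complex I, 1 rose and 1 fell (median 0.11), and of those of complexes II to V, 0 rose and 0 fell (median −0.19). UQCRC1, a core protein of complex III, had levels of 4.31 to 4.94 at the early stage (median 4.55) and 0.94 to 2.97 at the middle stage (median 2.35), a change of −2.30 ± 0.22, adjusted P = 3.98e-05. COX6B2, an isoform of a cytochrome c oxidase subunit, rose (0.79 ± 0.13, adjusted P = 0.000614).

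Transcripts of the mitochondrial genome moved both ways. Of the list, 3 of 11 rose, 1 fell, with a median of −0.42. ND6, COX3 and COX2 rose, by 2.48 ± 0.17, 0.83 ± 0.20 and 0.75 ± 0.21, and ND2 fell by 0.93 ± 0.27. The list median per animal ran from −1.64 in animal 5 to 1.55 in animal 4. Without animal 4, 3 members rose and 5 fell and the median was −0.66, and with quantile normalization 1 rose and 3 fell. The median was −0.25 without animal 5 and −0.26 without animal 7.

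Of fatty acid oxidation and ketogenesis, 7 of 34 rose, 13 fell (median −0.20). ECHS1, the enoyl-CoA hydratase, had levels of 5.96 to 6.79 at the early stage (median 6.31) and 3.72 to 4.50 at the middle stage (median 3.97) and changed by −2.32 ± 0.14, adjusted P = 9.51e-06, without overlap. The ketone enzyme BDH1 changed by −1.01 ± 0.22, adjusted P = 0.00246. ECI2 and CPT1A, an enoyl-CoA isomerase and the carnitine transferase of the outer membrane, rose by 1.16 ± 0.15 and 1.07 ± 0.26. Of glycolysis, 5 of 13 rose, 3 fell (median 0.25). PGK1, phosphoglycerate kinase, fell (−2.29 ± 0.29, adjusted P = 0.000133) from levels of 5.38 to 5.62 to levels of 1.21 to 4.28. PFKP, a phosphofructokinase, rose (0.97 ± 0.17, adjusted P = 0.000822). GAPDH is counted here by its brightest probe, near the 3′ end, as risen, and 4 of its other probes fell.

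Pumps and exchangers that handle acid more often fell than rose. Of the ion-pumping ATPases, 2 of 20 rose, 12 fell (median −0.47). Of the 12 that fell, 11 belong to the vacuolar proton pump or its accessory protein, and the other was the plasma membrane calcium pump ATP2B1. ATP6V0B, a membrane subunit of the proton pump, had levels of 5.91 to 6.49 at the early stage (median 6.19) and 2.55 to 4.92 at the middle stage (median 4.23), and changed by −2.10 ± 0.25, adjusted P = 9.92e-05. The sodium pump subunit ATP1B1 rose (0.78 ± 0.20, adjusted P = 0.00578), but was not called with normexp (0.31, adjusted P = 0.208) or with the slide as a random block (adjusted P = 0.0658). The list median was below 0 in 8 of 9 cattle, with animal 9 at 0.09. Of its 8 members whose probes start from base 1500, 1 rose and 3 fell, with a median of −0.13.

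Of volatile fatty acid, proton and bicarbonate transport, 2 of 16 rose, 6 fell (median −0.13). The median was −0.26 without animal 9, −0.08 without animal 4 and −0.07 without animal 5. The 6 that fell included the water and glycerol channel AQP3, described above. SLC26A3, an anion exchanger of the apical membrane, had levels of 5.35 to 7.46 at the early stage (median 6.76) and 2.36 to 6.27 at the middle stage (median 3.58), and changed by −2.74 ± 0.46, adjusted P = 0.000587. BSG, the chaperone of monocarboxylate transporters, and the carbonic anhydrase CA12 fell by 1.17 and 1.14. SLC16A1, a monocarboxylate transporter, stood at 0.30 ± 0.21 (adjusted P = 0.23). SLC26A2, a sulfate transporter, and the water channel AQP1 rose, by 0.62 ± 0.22 and 0.54 ± 0.16. Over all SLC and SLCO transporters, 34 of 124 rose, 31 fell (median 0.04, below 0 with cyclic loess or normexp). SLC16A8, another monocarboxylate transporter, had levels of −0.24 to 0.28 at the early stage (median 0.03) and 1.00 to 3.12 at the middle stage (median 1.69), a rise of 1.71 ± 0.21, adjusted P = 0.000125.

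Genes of the cornified outer layers more often fell than rose, and those of the cell junctions moved both ways. Of the cornified envelope, 1 of 12 rose, 6 fell (median −0.52), and the list median was below 0 in all 9 cattle, from −0.92 to −0.07. IVL, the envelope protein involucrin, had levels of 8.04 to 9.61 at the early stage (median 8.81) and 6.33 to 7.82 at the middle stage (median 6.90). It fell without overlap (−1.99 ± 0.23, adjusted P = 8.41e-05). The protease inhibitor SPINK5, the transcription factor KLF4 and the transglutaminase TGM1 changed by −1.83 ± 0.28, −1.67 ± 0.27 and −1.54 ± 0.24. SERPINB5, the 1 member that rose, changed by 0.95 ± 0.19, adjusted P = 0.00136. Of the 6 members whose probes start from base 1500, 0 rose and 4 fell, with a median of −1.11.

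Of the keratins, 2 of 18 rose, 5 fell (median 0.03, which goes below 0 with quantile normalization, cyclic loess or normexp). KRT19, a keratin of simple epithelia, had levels of 7.18 to 7.85 at the early stage (median 7.56) and 8.38 to 9.22 at the middle stage (median 8.80) and rose without overlap (1.14 ± 0.14, adjusted P = 0.000131). The basal keratin KRT14 fell (−1.12 ± 0.17, adjusted P = 0.000314), and KRT6A, a keratin of activated cells, changed by −1.28 ± 0.32. Of desmosomes and hemidesmosomes, 6 of 14 rose, 3 fell (median 0.30). COL17A1 and ITGA6, which hold basal cells to the basement membrane, rose by 1.30 ± 0.21, adjusted P = 0.000474 and 1.07 ± 0.16, and DSC2, a desmosomal cadherin, fell by 1.05. Of the tight junction, 5 of 13 rose, 5 fell: CLDN4 changed by −1.41 ± 0.20, adjusted P = 0.000245 and CGN, the adaptor cingulin, by 1.06 ± 0.21, adjusted P = 0.00141, which normexp did not call (0.27, adjusted P = 0.067).

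Of S100 proteins and epithelial defense genes, 6 of 16 rose, 3 fell (median 0.17). These shares, 37.5% and 18.8%, were near the 31.4% and 23% of all bright probes. All 6 that rose were S100 genes: S100A12, S100A14, S100A2, S100A3, S100A8 and S100B. With normexp 0 of the 16 members rose and 4 fell, with a median of −0.25. S100A12, a calcium-binding alarmin, had levels of 11.11 to 11.70 at the early stage (median 11.27) and 11.56 to 13.05 at the middle stage (median 12.22) and rose (0.86 ± 0.16, adjusted P = 0.00105), with overlap. The change was 0.05 (adjusted P = 0.725) with quantile normalization and 0.38 (adjusted P = 0.173) with normexp, so that the call was lost under both. The oxidase DUOX2 and its maturation factor DUOXA1 fell, by 0.91 and 0.73, as did the galectin LGALS3, by 1.27.

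Lysosomal genes and genes of cytokine signaling more often fell than rose. Of the lysosome list, 0 of 27 rose, 13 fell (median −0.39), and the list median was below 0 in all 9 cattle. The proteases CTSD, CTSB and CTSV changed by −2.09 ± 0.15, −1.98 ± 0.17 and −1.91 ± 0.19. LAMP3 levels were 4.58 to 6.91 at the early stage (median 5.84) and 2.32 to 4.50 at the middle stage (median 3.33), without overlap. Of the 18 members whose probes start from base 1500, 0 rose and 7 fell. Of the list of JAK, STAT and cytokine receptor genes, which includes Toll-like receptors, 5 of 33 rose, 12 fell (median −0.35, below 0 in all 9 cattle). IFNGR1, a chain of the interferon gamma receptor, had levels of 3.22 to 3.65 at the early stage (median 3.56) and 0.28 to 2.71 at the middle stage (median 2.05) and changed by −1.47 ± 0.23, adjusted P = 0.000393. Its partner IFNGR2 changed by −1.11 ± 0.18, and the signal transducers STAT3 and JAK2 by −0.79 ± 0.16 and −0.58 ± 0.14. TLR2, a sensor of bacterial lipoproteins, rose without overlap (1.33 ± 0.17, adjusted P = 0.000166).

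Of interferon-stimulated and antigen presentation genes, 4 of 20 rose, 8 fell (median −0.38, with animal 9 lowest at −0.91). TAPBP, which loads peptides, fell (−1.46 ± 0.22, adjusted P = 0.000329), and the peptide transporter TAP1 rose (0.84 ± 0.14, adjusted P = 0.000673). Of antioxidant and NRF2 target genes, 7 of 46 rose, 17 fell (median −0.32), with NQO2, a quinone reductase, higher (0.96 ± 0.17, adjusted P = 0.000731), but not called with normexp (0.37, adjusted P = 0.327). Of 46 bright members, 8 had probes that start from base 1500, and of these 1 rose and 0 fell.

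Lists of genes that fold, tag and degrade proteins had medians below 0 as reported. Of chaperones, 10 of 44 rose, 18 fell (median −0.19). HERPUD1, an endoplasmic reticulum stress protein, had levels of 3.36 to 4.11 at the early stage (median 3.81) and 1.48 to 2.49 at the middle stage (median 2.17) and changed by −1.73 ± 0.16, adjusted P = 3.59e-05. DDIT3, a transcription factor of that stress response, rose (1.28 ± 0.24, adjusted P = 0.00101). Of ubiquitin conjugation genes, 3 of 32 rose, 16 fell (median −0.32), with the conjugating enzymes UBE2J2 at −1.28 ± 0.13, adjusted P = 4.98e-05 and UBE2E3 at 1.34 ± 0.21, adjusted P = 0.00041. Of the proteasome, 8 of 36 rose, 8 fell (median −0.11), where the ATPase PSMC3 fell (−1.57 ± 0.18, adjusted P = 8.17e-05) and PSMD8 rose (0.82 ± 0.16, adjusted P = 0.00148), which normexp did not call (0.31, adjusted P = 0.182). The proteasome median was 0.13 with a fixed block for the slide and 0.04 over the 4 members whose probes start from base 1500.

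Growth factor genes had the highest list median. Of the list, 8 of 16 rose, 4 fell (median 0.49), and the list median was above 0 in all 9 cattle. FGFR2, a receptor for fibroblast growth factors, had levels of −0.15 to 0.45 at the early stage (median 0.03) and 0.99 to 3.74 at the middle stage (median 1.58). It rose without overlap (1.66 ± 0.25, adjusted P = 0.000331), and its level in animal 4 was 3.74 against at most 1.92 in the others. The binding proteins IGFBP6 and IGFBP5 rose by 1.25 ± 0.24 and 1.07 ± 0.20, and IGFBP3 and the ligand AREG fell by 0.82 and 1.30.

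Of proliferation genes, 7 of 25 rose, 3 fell (median 0.25). The mitotic checkpoint kinase BUB1 rose (1.18 ± 0.16, adjusted P = 0.000216), BUB1B changed by 1.70 ± 0.28, and CDK6, a kinase of cell cycle entry, fell (−0.95 ± 0.12, adjusted P = 0.000141). Of the 9 members whose probes start from base 1500, 0 rose and 1 fell, with a median of −0.08, and without animal 7 the list median was 0.14. Of p53, cell-cycle inhibitor and apoptosis genes, 6 of 19 rose, 4 fell (median −0.07), with MDM4, an inhibitor of p53, higher (1.59 ± 0.19, adjusted P = 0.000113). Of immediate early genes, 2 of 18 rose, 6 fell (median −0.11). FOS, a transcription factor, had levels of 3.04 to 4.04 at the early stage (median 3.44) and 0.82 to 2.70 at the middle stage (median 1.37), a change of −1.75 ± 0.23, adjusted P = 0.000166.

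Lists of zinc finger, chromatin and splicing genes had more rises than falls as reported, although the share of splicing genes that rose (35.8%) was near the 31.4% of all bright probes. Of the zinc finger ZNF genes, 45 of 95 rose, 10 fell (median 0.33), and the list median was above 0 in all 9 cattle. Of the 62 whose probes start from base 1500, 25 rose and 4 fell. With normexp 15 rose and 17 fell, and the median was −0.09. ZNF774, the largest fall among them, had levels of 2.88 to 3.16 at the early stage (median 3.01) and 1.66 to 2.65 at the middle stage (median 2.30) and changed by −0.79 ± 0.14, adjusted P = 0.00075. Of histones and chromatin modifiers, 18 of 41 rose, 5 fell (median 0.23), where the acetyltransferase KAT8 fell (−1.58 ± 0.20, adjusted P = 0.000147). Of splicing factors, 19 of 53 rose, 7 fell (median 0.11, above 0 in all 9 cattle), with HNRNPUL1 higher (1.29 ± 0.18, adjusted P = 0.000219) and PRPF8, a core spliceosome protein, lower (−1.97 ± 0.22, adjusted P = 7.32e-05). With normexp 6 histone and chromatin genes rose and 10 fell, and 5 splicing genes rose and 12 fell.

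Genes of translation moved both ways. Of the cytosolic ribosomal proteins, 28 of 57 rose, 8 fell (median 0.32). With quantile normalization 11 rose and 10 fell, and with normexp 3 and 9. RPL3 had levels of 1.57 to 2.12 at the early stage (median 1.92) and 2.66 to 4.35 at the middle stage (median 3.57) and rose (1.53 ± 0.19, adjusted P = 0.000128), and RPSA had levels of 7.66 to 8.39 at the early stage (median 8.03) and 3.62 to 6.95 at the middle stage (median 6.40) and fell (−2.08 ± 0.33, adjusted P = 0.00045). Within this list 3 probes of RPL27 on one transcript changed by −0.36 from base 300 and by 0.31 from base 415, and none of the members starts from base 1500. Of mitochondrial ribosomal proteins, 10 of 68 rose, 21 fell (median −0.24), with MRPL28 at −1.56 ± 0.16 and MRPL52 at 1.37 ± 0.19. Of the 3 mitochondrial ribosomal members whose probes start from base 1500, 0 rose and 1 fell, with a median of 0.05. Of aminoacyl-tRNA synthetases, 2 of 24 rose, 8 fell (median −0.15), where mitochondrial LARS2 rose (0.70 ± 0.17, adjusted P = 0.00366), but not with normexp (0.09, adjusted P = 0.736). Of translation factors, 9 of 43 rose, 17 fell (median −0.19). The elongation factor EEF1A1 fell (−1.97 ± 0.23, adjusted P = 9.12e-05), and PABPC1, which binds poly(A) tails, rose (1.06 ± 0.13, adjusted P = 0.000133), which normexp did not call (0.43, adjusted P = 0.129). Of the 19 translation factors whose probes start from base 1500, 4 rose and 3 fell, with a median of 0.08.

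Of cholesterol and fatty acid synthesis genes, 8 of 23 rose, 6 fell (median 0.18). The elongase ELOVL6 had levels of 1.26 to 3.00 at the early stage (median 2.14) and 2.64 to 5.25 at the middle stage (median 3.89) and rose (1.70 ± 0.27, adjusted P = 0.000419), and the desaturase FADS1 changed by 1.43 ± 0.28. INSIG2 and INSIG1, which retain the sterol sensor in the endoplasmic reticulum, fell, by 0.57 and 0.89. Of actin cytoskeleton and small GTPase genes, 15 of 44 rose, 11 fell (median 0.04, below 0 with cyclic loess or normexp), with the myosin MYH9 higher (1.60 ± 0.18, adjusted P = 8.75e-05) and the GTPase RHOA lower (−1.60 ± 0.22, adjusted P = 0.000215). Of tubulin and vesicle transport genes, 22 of 121 rose, 40 fell (median −0.12). TUBA1A, an alpha tubulin, had levels of 5.26 to 6.08 at the early stage (median 5.55) and 2.50 to 4.21 at the middle stage (median 3.25) and changed by −2.32 ± 0.19, adjusted P = 1.81e-05, and RAB2B, a GTPase of the Golgi, rose (1.69 ± 0.21, adjusted P = 0.000116).

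The cattle differed in how far the lists moved. Per animal, the median change of the bright probes ran from −0.18 in animal 4 to 0.40 in animal 9 (median 0.06), and the SD of the changes over bright probes from 0.61 to 1.33, the highest in animal 4. The percentage of bright probes with a higher level at the middle stage ran from 44.7 to 69.9. The list medians for aminoacyl-tRNA synthetases (−0.94), the tricarboxylic acid cycle (−1.34) and the mitochondrial ribosomal proteins (−0.76) were lowest in animal 4, and animal 9 had medians above 0 in these lists. Leaving out 1 animal turned a list median or moved it by over 1.5 times in 21 of the 35 lists. Without animal 4 the medians were −0.07 for the synthetases, −0.15 for the mitochondrial ribosomal proteins, −0.08 for chaperones, −0.22 for JAK, STAT and cytokine receptor genes, −0.06 for the proteasome, −0.08 for tubulins and vesicle transport and 0.18 for splicing factors. Without animal 9 it was −0.30 for translation factors, without animal 8 0.11 for cholesterol and fatty acid synthesis and 0.17 for splicing factors, without animal 5 −0.05 for immediate early genes, and without animal 2 0.10 for S100 and defense genes. For lists with medians near 0, leaving out 1 animal gave −0.13 to 0.06 for complex I, −0.15 to −0.04 for complexes II to V, −0.03 to 0.07 for keratins, −0.12 to 0.03 for the tight junction, −0.17 to −0.01 for p53 and apoptosis genes, −0.02 to 0.07 for SLC and SLCO transporters and −0.00017 to 0.08 for actin cytoskeleton and small GTPase genes. The 7 lists with the same sign in all 9 cattle were the lysosome, cornified envelope and JAK, STAT and cytokine receptor lists below 0, and the ZNF, glycolysis, growth factor and splicing lists above 0. The median of all bright probes was itself below 0 in only 2 of the 9 cattle. In animal 7 the splicing median (0.17) lay below that of all bright probes (0.19).

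**Figure D4:**
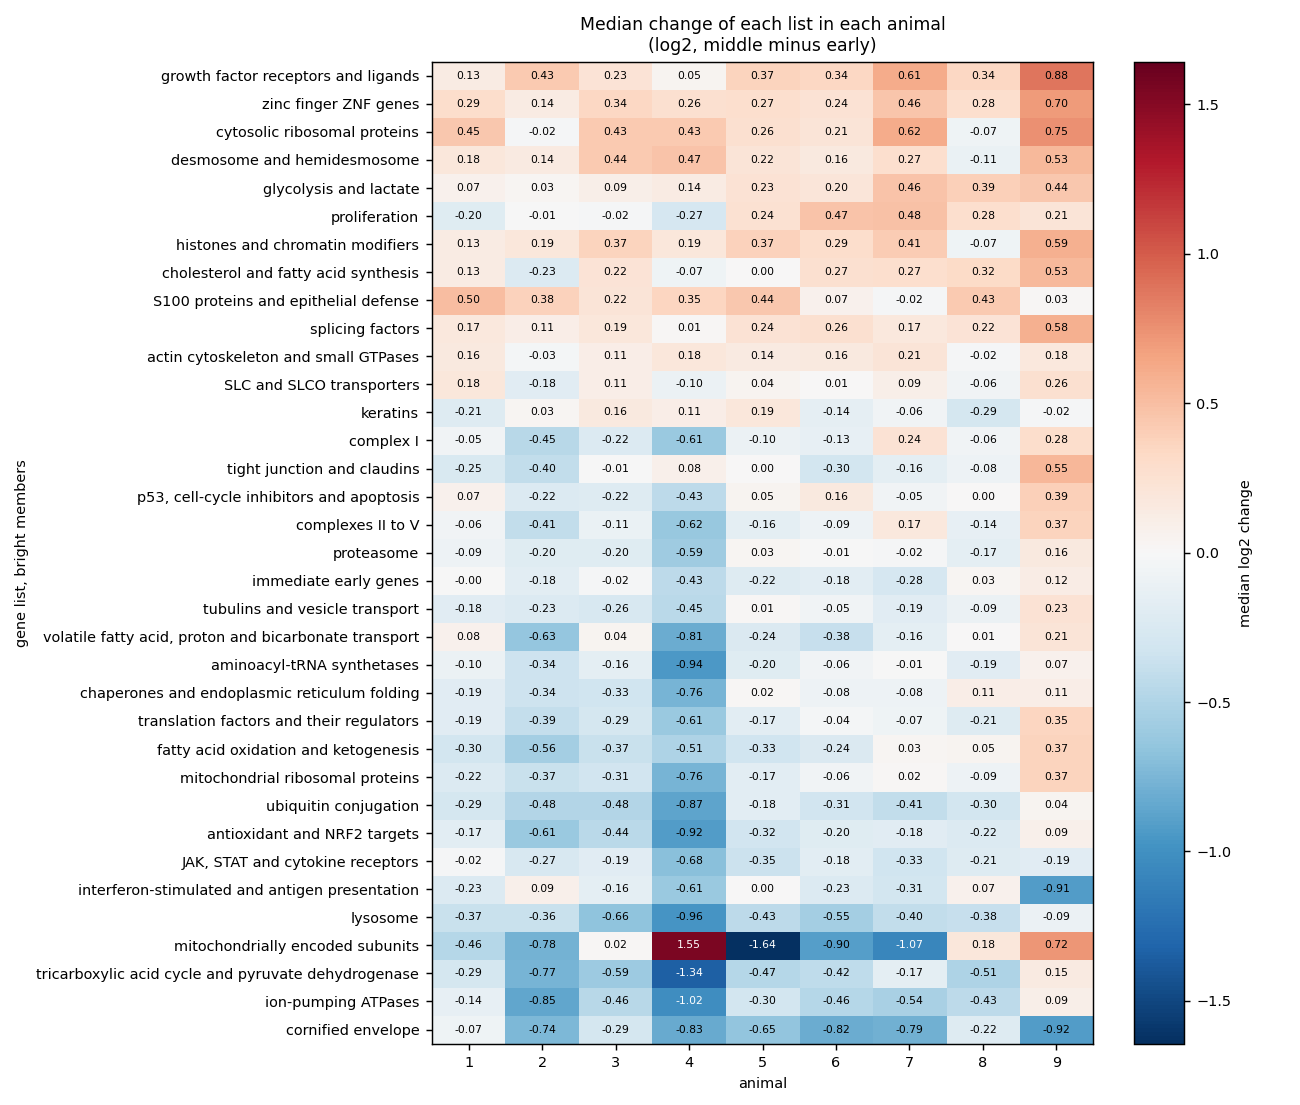
Median change (log2, middle minus early) of the bright members of each gene list in each animal; blue is lower and red higher at the middle stage. Animal 4 has the lowest median in many of the lists in the lower part, and animal 9 has medians above 0 in most of them.

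The change also moved with the level and the base composition of the probes, described here without a test. A probe that was dim at the early stage and fell would not have been well above background on the middle arrays, so that the rule itself limits falls among dim probes. Of bright probes ordered by early level in 10 bins of equal size, the dimmest had a median change of 0.63, with 71.8% higher and 2.05% lower, and the other bins had medians from −0.08 to 0.28. Probes with up to 36.7% GC had a median change of −0.09 and those with at least 55% GC of 0.28. The Spearman coefficient across probes, which share arrays and are not replicates, was −0.25 for level and 0.17 for GC content.

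The markers of stratified epithelium were present: 13 of 14 on the array were bright, and of these 3 rose and 6 fell. Their summed signal over the array median ran from 3184 to 4237 at the early stage and from 1017 to 4463 at the middle stage. Of the 5 red blood cell markers 1 was bright, HBA, a hemoglobin chain, which rose by 1.22 ± 0.17 (adjusted P = 0.000198, limma), and their summed signal ran from 37.9 to 66.8 and from 102 to 195, without overlap. Of 10 liver markers 1 was bright, APOA2, and 2 were above background on none of the 18 arrays, among them ALB, the liver's main secreted protein. Their summed signal ran from 29.7 to 82.7 at the early stage and from 37.2 to 101 at the middle stage. Of 7 neutrophil markers 0 were bright and 2 never above background, with sums of 1.86 to 5.46 and of 1.22 to 3.85. Of the 6 bright fibroblast markers 1 rose and 1 fell. The part of blood or of other cells in the gene results was not tested.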

How the data were processed

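RNA from RE biopsies was labeled with cyanine 3 and hybridized to 1-color arrays. The authors made the deposited intensity values (processed signal, linear) with Agilent Feature Extraction, 11.0.1.1 per the file headers and 9.5 per the submitters' processing notes, which also marks spots well above background or as outliers; these marks are as deposited. The deposited log2 values of the series matrix were made by the authors, lie within 0.081 of log2 signal minus the array's 75th percentile, with array medians from −3.09 to −2.61, and were used only as an alternative. There were 0 columns of other samples.

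The log2 intensity minus the array median was fitted in R 4.3.3 with limma 3.58.1 (statmod 1.5.0, data.table version 1.17.8) on 18 arrays, with the animal as a block and empirical Bayes moderation, Benjamini-Hochberg adjustment over 15008 probes and thresholds of 0.05 and 2-fold. Spots of a probe were averaged and 80 outlier spots over the 18 arrays left missing. P-values measure the spread between the biopsies of 9 cattle, with a single array each per stage; their number sets the precision. The same animals pair the arrays: deviations from stage means correlated by 0.27 on average within an animal (−0.06 to 0.72, above 0.1 in 7 of 9) and by −0.03 between animals.

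Gene names are those of the design, updated for 11681 probes matched to the RefSeq gene list, of which 688 differed; the brightest probe stands for a gene. Named genes are the 12 largest rises and 12 largest falls among bright probes with a gene symbol, called and moving one way in all 9 cattle with either the median of all probes or that of the bright probes as the center, and per list the largest such rise and fall, except that some results are not reported here. The members, lists and rules were chosen with earlier results of these data known, list entries were amended and design names were dropped from list matching where they clashed with the current symbol, after results had been seen. The probe position measures, the GAPDH covariate and the limit at base 1500 were chosen after seeing the data, when level, GC content, gene length, exon junctions, chromosomes, probe names, reading frames and accession types were examined too. On simulated data of 15008 probes the fit recovered 18% of true changes of 0.5, 78% of 1 and 100% of 2 (log2), with 6.49% of calls false. The simulation changed 50 probes per size and had independent noise, without slide or position effects. These shares therefore check the fit only and do not give the error rate of the present calls.

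Alternatives were 75th percentile, bright-probe median, quantile and cyclic loess scaling, normexp (offset 50), series matrix values, outliers kept, a fit without the animals, blocks for the slide (random or fixed), the second slide by itself, all 27 arrays, the methods' t-test, other bright rules and adjustment, each animal left out, the first scan day, animals 4 and 9 left out, the GAPDH covariate and probes from base 1500. Exons and distances to the 3′ end were not annotated, since no genome of the array's build was used here.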

Additional observations from a re-analysis of the deposited data

Results flagged for a closer look

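Some single arrays stood apart from the other 8 of their stage; the gap to the nearest array, as a share of the range, exceeded the 95% limit of Dixon. Of 197 groups of 9 values tested, 24 had such an array, and 19 of the 24 were animal 4, whose middle stage array had the lowest median signal. About 1 in 20 independent groups would pass the limit by chance. These groups share the same arrays and most are levels of genes chosen for large changes, so that rate does not apply. At the middle stage animal 4 had the highest level of THRAP3 at 6.58 (next 4.82), FGF16 at 6.91 (next 4.82), MTMR2 at 10.23 (next 8.56), ERCC4 at 5.14 (next 2.98), NDUFC1 at 3.52 (next 2.38), SERPINB5 at 4.91 (next 3.91), FGFR2 at 3.74 (next 1.92) and HNRNPUL1 at 2.46 (next 1.29). It had the lowest level of ENPP3 at 0.45 (next 1.76), IL36RN at 0.60 (next 2.03), GHITM at 0.56 (next 1.56), IFNGR1 at 0.28 (next 1.78), UQCRC1 at 0.94 (next 2.07) and KAT8 at 0.18 (next 1.51). The level of GZMM in animal 4 at the early stage stood below the others at 1.07 (next 1.58). The level of COX6B2 in animal 9 at the early stage stood above the others at 1.02 (next 0.67). The level of KAT8 in animal 2 at the early stage stood below the others at 2.82 (next 3.17). The level of TAP1 in animal 9 at the early stage stood above the others at 1.35 (next 0.86). The level of PABPC1 in animal 9 at the early stage stood below the others at 4.83 (next 5.13). The SD of the changes over bright probes was 1.33 in animal 4 against at most 0.88 in the others. Its list medians were −0.68 for JAK, STAT and cytokine receptor genes (next −0.35), −0.94 for aminoacyl-tRNA synthetases (next −0.34) and −0.59 for the proteasome (next −0.20). The median of the splicing factor list was highest in animal 9, at 0.58 (next 0.26). Without animal 4 all 79 named genes were still called. Their direction there was fixed by the choice of genes that moved one way in all 9 cattle.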

How the results depend on the processing

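The counts and the median of the bright probes were compared over 30 alternatives; each count kept within 1.5 times of the reported value in 24, and the median moved by less than 1 SD over the cattle in 27. Normexp gave 790 rises, 14 of them at least 2-fold, and a median of −0.28. The slide as a random block gave 841 falls. As a fixed block it gave 1 rise and 0 falls, 1 and 0 at 2-fold, with a median of 0.37, and slide 2 alone gave 0 rises and 1 fall, 0 and 1 at 2-fold. The 1 call with the fixed block was PRXL2B (9.06 ± 0.58, against 0.95 as reported) and that on slide 2 was SLA2 (−3.20 ± 0.43, adjusted P = 0.049, limma; −2.10 as reported). Probes bright on at least 7 of 9 arrays of each stage gave 660 rises and 738 falls of 2-fold among 8636 probes, so that falls outnumbered rises. Without a filter on dim probes, 6455 rose and 2825 fell, 3566 and 1130 at 2-fold, with a median of 0.33. The limit at base 1500 left 3419 probes, of which 1057 rose and 658 fell, 222 and 141 at 2-fold, so that rises made up 61.2% of the 2-fold changes against 50.8%. The GAPDH covariate gave 0 rises and 0 falls, 0 and 0 at 2-fold. Without the replicate block of the animals, 2103 rose and 1579 fell, and no named gene lost its call. Leaving out 1 animal gave 1865 to 2127 rises, 1369 to 1721 falls, 415 to 548 and 374 to 533 at 2-fold, and a median of 0.04 (without animal 9) to 0.11 (without animal 4). The methods' t-test gave 2268 rises and 1576 falls after Benjamini-Hochberg adjustment. Relative to the reported setting, the median of all probes moved by over 0.1 with quantile normalization (0.09), normexp (0.13), slide as a fixed block (0.45), slide 2 alone (0.22) and the GAPDH covariate (0.13), from 0.33; the directions of single genes are relative to it. Cyclic loess was run on the bright probes alone and gave them a median of 0.01, from 0.08. The cause of these shifts was not tested.

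Of 2054 values for the 79 named genes, 1807 kept their direction and call, 222 kept the direction only and 25 turned. Directions with animals left out or with bright-probe median scaling were fixed by the choice of the genes, so there only the calls could change. A fixed slide block turned INSIG2 to 0.14. With the GAPDH covariate 55 kept their direction without a call and 24 turned. The turned values had standard errors from 0.34 (TAP1) to 0.85 (ERCC4). Since the covariate did not overlap between the stages, these signs are uncertain. The falls that turned were IFNGR1 0.54, RHOA 0.27, INSIG2 0.14, RPSA 0.62, PGK1 0.44, KAT8 0.029, TAPBP 0.38 and ZNF774 0.034. The rises that turned were FGF16 −0.52, GZMM −0.22, MTMR2 −0.096, ERCC4 −0.40, ZNF33B −0.42, TLR2 −0.074, S100A12 −0.35, SLC16A8 −0.096, ELOVL6 −0.23, SERPINB5 −0.58, FGFR2 −0.17, TAP1 −0.100, PSMD8 −0.44, CGN −0.23, PDHA1 −0.056 and UBE2E3 −0.058. Calls were lost by 7 named genes under normexp, by 2 (ATP1B1 and INSIG2) under a random slide block, by 1 (S100A12) under quantile normalization, by 79 on slide 2 alone and by 78 under a fixed slide block, where INSIG2 turned. The signal over background of the dim middle stage arrays limits what can be seen, no spot was saturated, so keeping or dropping saturated spots was not run, and the 1 early array on slide 2 leaves that comparison with little precision.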

Other observations

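Bright probes were spread over all chromosomes, and the share that fell ran from 18.6% of 431 on chromosome 19 to 35.2% of 142 on chromosome 9, among chromosomes with at least 142 bright probes. Among the 725 bright probes that join exons the median change was 0.02, and among the 6067 within 1 exon 0.08. Genes not named by the lists include COX6B1, whose 2 bright probes lie on different chromosomes and changed in opposite directions (0.48 ± 0.13 and −0.42 ± 0.15, adjusted P of 0.00853 and 0.0241, limma), and LYZ1, a lysozyme, whose brighter probe changed by −1.77 ± 0.39 (adjusted P = 0.0025, limma). OAZ1, an inhibitor of polyamine synthesis, fell at both of its bright probes, by 1.35 from base 556 and by 1.14 from base 1102. These genes were chosen after their values were seen.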
